A study of Mus musculus with 16 samples.

Results

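The transcriptomes of the mouse hippocampal subregions CA3 and dentate gyrus (DG) were compared with 5 CA3 and 5 DG libraries, which are 10 of the 16 bulk RNA-seq libraries of the series. The libraries were chosen by the subregion named in their labels, without reference to any measured value. All animals were ArcCreERT2::eYFPflx mice on a C57BL/6 background, aged 3 to 4 months, in which the Arc promoter drives a tamoxifen-dependent Cre recombinase that switches on a yellow fluorescent reporter. Trained mice learned active place avoidance, in which a rotating arena holds an unmarked zone where a foot shock is given. Untrained mice walked in the same arena with the shock off. The last training session was followed after 24 h by a retention test, and the brains were collected 60 min later. Each subregion was dissected by hand from 400 µm coronal sections of dorsal hippocampus and pooled per animal, so a library holds every cell type of the piece. The CA3 libraries came from trained animals 1, 2 and 3 and untrained animals 1 and 2, and the DG libraries from trained animals 1, 2 and 3 and untrained animals 1 and 3. By the numbers in the labels, 4 of the 6 animals gave both subregions. Both sexes were used (2 females and 1 male trained, 1 female and 2 males untrained), and the labels give no sex for a library.

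The DG and CA3 are successive stations of the hippocampal circuit. Granule cells of the DG are small, densely packed glutamatergic neurons whose axons, the mossy fibres, end on the proximal dendrites of CA3 pyramidal neurons in large zinc-rich boutons. CA3 pyramidal neurons connect to each other through recurrent collaterals and project on to CA1. The principal cells of DG and CA3 are textbook examples of neighbouring neurons with distinct expression programmes: Prox1, the homeobox transcription factor that maintains granule cell identity, marks the DG, and Grik4, a high-affinity kainate receptor subunit, is enriched in CA3.

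The deposited values are normalized estimated counts, called normalized values here. Their sum per library lay between 7642371 and 7984144 in the 10 libraries, so the sums do not show sequencing depth, which is unknown. The number of genes at 0 fell into separate ranges: 4 libraries had 7567 to 8691 genes at 0, namely CA3 of trained animals 1 and 2 and DG of untrained animals 1 and 3, and the other 6 had 3171 to 5944. This split ran in opposite senses in the training groups, with more genes at 0 in CA3 than in DG for trained animals 1 and 2 and the reverse for untrained libraries. Xist, the X-inactivation RNA of female cells, gave a check of whether libraries of the same number came from the same animal. It was at 10587 in the library labelled CA3 of untrained animal 1, and at 25.5 in the library labelled DG of the same number. Ddx3y, a gene of the Y chromosome, was at 201 and 448 in these libraries, so the CA3-labelled library carried both transcripts. The CA1-labelled library of that number had Xist at 26.1 and Ddx3y at 553, near the DG-labelled one. The CA3-labelled library thus did not share the sex-linked profile of the CA1-labelled and DG-labelled ones. Whether any of these 3 libraries departs from its label or holds RNA of several animals was not tested. The libraries labelled for trained animal 3 also carried both transcripts, with Xist at 12112 and Ddx3y at 92.9 in CA3 and at 7601 and 255 in DG. The CA1-labelled library of that number had Xist at 18314 and Ddx3y at 101. In the libraries numbered trained 1, Ddx3y was at 70.9 (CA1), 12.9 (CA3) and 1.83 (DG), with Xist at 15810 to 19592. Over all 16 libraries of the series, Xist was at 7601 to 19592 in the 9 trained libraries and at 25.5 to 52.4 in 6 of the 7 untrained ones, the CA3-labelled library of untrained animal 1 being the exception, although the methods give a male among the trained and a female among the untrained animals. Training and Xist therefore ran nearly together, and their parts in the training term cannot be told apart. The markers of granule cells and of CA3 pyramidal neurons, given next, did not separate the subregion labels either. No library stood apart as low in the granule cell marker Prox1, whose highest value over all 16 libraries was 1.78 times its lowest. What the pieces held beyond their labels was not tested, so a count of 0 genes describes the labelled libraries. They are called CA3-labelled and DG-labelled, and the count of genes past the adjusted threshold in each unpaired comparison within these 10 libraries is also given without a library wherever its removal changed that count. The labels do not say that samples of a group came from separate litters or days, so p-values measure only the spread between these libraries.

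The markers of DG granule cells were as high in CA3-labelled as in DG-labelled libraries. Prox1 (chromosome 1, 190118035 to 190170714, minus strand, GRCm38) had values of 4002, 2862 and 2690 (trained) and 4786 and 3902 (untrained) in CA3-labelled libraries. In DG-labelled libraries it was at 3365, 3366 and 3292 (trained) and 4118 and 4183 (untrained). The highest and the lowest values were both in CA3-labelled libraries, and the groups overlapped completely. The means were 3648 ± 869 (SD, n = 5) in CA3 and 3665 ± 445 (SD, n = 5) in DG. The log2 difference, CA3 minus DG with training as a term, was -0.03 with a 95% interval of -0.24 to 0.18, which corresponds to ratios of 0.846 to 1.13. Dsp, which encodes the desmosomal protein desmoplakin and is a classical granule cell marker, had values of 2286, 1734 and 1688 (trained) and 2682 and 2189 (untrained) in CA3-labelled libraries. In DG-labelled libraries Dsp was at 2055, 2060 and 1871 (trained) and 2234 and 2686 (untrained). Its log2 difference was -0.05 (interval -0.24 to 0.13). C1ql2, a secreted organizer of mossy fibre synapses, differed by 0.00 (-0.27 to 0.26), and Calb1, the calcium buffer calbindin, by -0.11 (-0.34 to 0.11). Lct (lactase), Stxbp6, Fam163b and the prodynorphin gene Pdyn had log2 differences between -0.06 and 0.02.

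**Figure D1:**
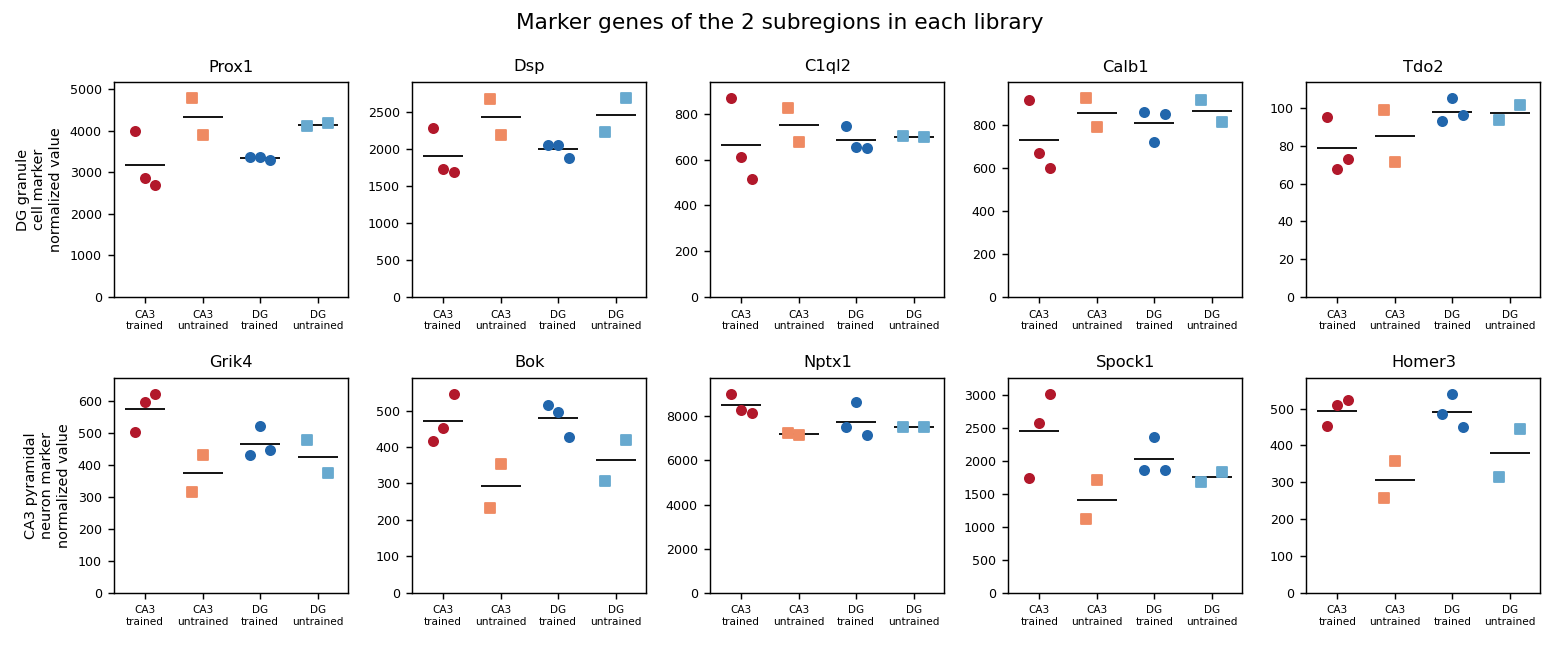
Normalized values (y axis, from 0) of 5 granule cell markers (top row) and 5 CA3 pyramidal neuron markers (bottom row) in each library, by label and training (x axis). Each point is a library and each line the group mean; in every panel the CA3-labelled and DG-labelled points overlap, as for Prox1 at 2690 to 4786 against 3292 to 4183.

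Over the whole granule cell list, 18 of 18 markers passed the filter on low values (at least 10 in at least 2 libraries), and none had an adjusted p under 0.05 by limma with Benjamini-Hochberg adjustment over 14303 genes (background 0% of genes called). The median log2 difference was -0.01, beside 0.00 over all genes tested. All 18 intervals lay within -1 and 1, that is, within 2-fold in either direction. At an unadjusted p under 0.05, 2 markers were higher in DG and none was higher in CA3, where the background is 2.20% of genes tested in the DG direction and 2.88% in the CA3 direction. These were Penk, the proenkephalin gene, and Tdo2, an enzyme of tryptophan breakdown. Penk was at 159, 138 and 165 (trained) and 164 and 188 (untrained) in CA3-labelled libraries and at 186, 202 and 233 (trained) and 219 and 204 (untrained) in DG-labelled libraries. The CA3-labelled library of untrained animal 2 was just above the lowest DG-labelled library, and the others lay below. The Penk difference was -0.36 (interval -0.55 to -0.16, adjusted p = 0.938), and that of Tdo2 was -0.28 (-0.54 to -0.01, adjusted p = 0.938).

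The markers of CA3 pyramidal neurons did not separate the labels either. Grik4 (chromosome 9, 42518135 to 42944493, minus strand, GRCm38) was at 503, 597 and 621 (trained) and 314 and 432 (untrained) in CA3-labelled libraries. In DG-labelled libraries it was at 431, 522 and 445 (trained) and 476 and 374 (untrained). The trained CA3-labelled libraries included the highest values, and the library labelled CA3 of untrained animal 1 had the lowest. The log2 difference was 0.10 (interval -0.17 to 0.37, adjusted p = 0.959). Bok, a member of the Bcl-2 family strongly expressed in CA3, was at 416, 453 and 546 (trained) and 232 and 354 (untrained) in CA3-labelled libraries. In DG-labelled libraries Bok was at 516, 496 and 427 (trained) and 307 and 421 (untrained). Its difference of -0.15 (-0.44 to 0.14) pointed towards DG. Homer3, a postsynaptic scaffold, differed by -0.12, Nptx1, a neuronal pentraxin that clusters AMPA receptors, by 0.05, Cpne4, a calcium-dependent phospholipid-binding protein, by 0.11, and Npy2r, a presynaptic neuropeptide Y receptor, by -0.04. Of the 15 listed CA3 markers, 14 passed the filter (Ly6g6e did not), none had an adjusted or unadjusted p under 0.05, 7 were positive and 7 negative, and the median was 0.00. All 14 intervals lay within -1 and 1. The direction was not the same in the training groups: within trained libraries 12 of 14 were positive (median 0.13), and within untrained libraries 2 of 14 were positive (median -0.18), beside medians of -0.00 and 0.00 over all genes tested. At an unadjusted p under 0.05 there were 3 of 14 within trained, 0 of 14 within untrained libraries and 3 of 14 for the interaction, where 6.19%, 10.8% and 11.0% of all genes tested had one. No marker passed the adjusted threshold for the interaction, so the change of direction is given as values. The pooled median moved with the untrained CA3 libraries, to 0.13 without untrained CA3 replicate 1 and to -0.06 without untrained CA3 replicate 2. Of the 18 granule cell markers, 6 were positive within trained (median -0.08) and 9 within untrained libraries (median 0.02). The highest pooled difference was that of Cdh24, a cadherin, at 0.31 (interval -0.03 to 0.65).

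**Figure D2:**
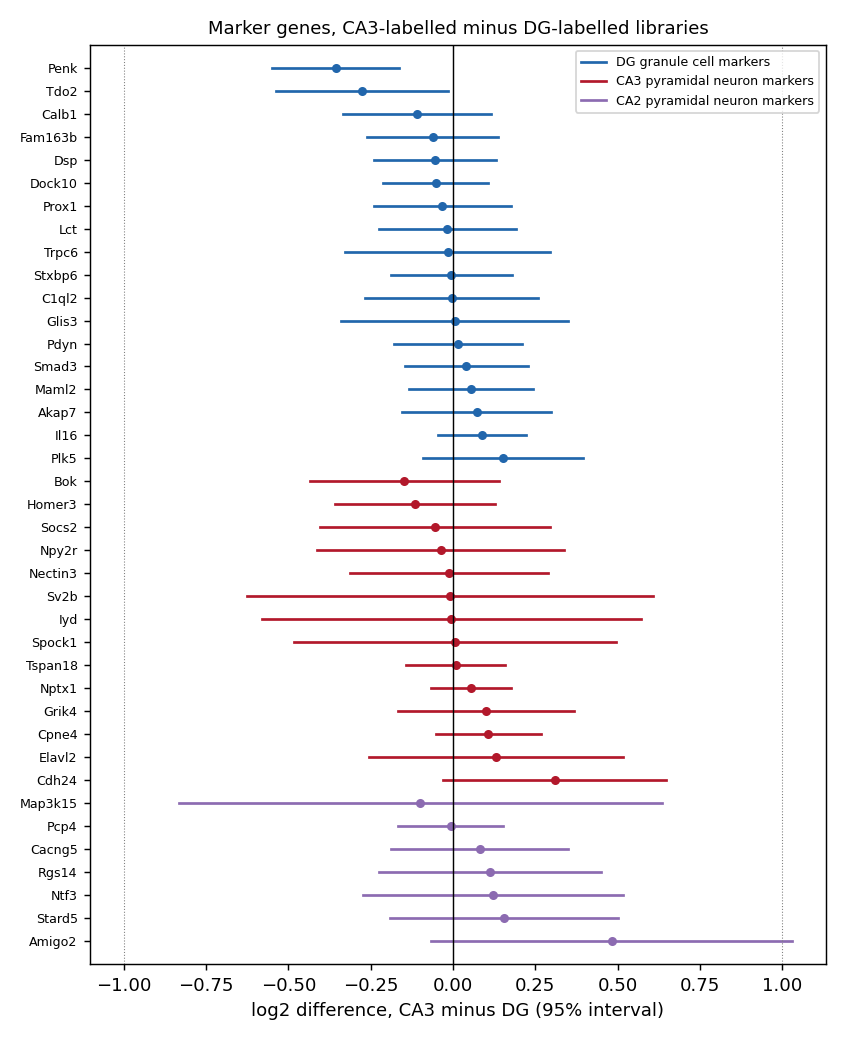
Log2 difference between CA3-labelled and DG-labelled libraries (x axis, dots) with its 95% interval (lines) for each tested marker of DG granule cells and of CA3 and CA2 pyramidal neurons (rows). The intervals of all 18 granule cell and all 14 CA3 markers lie between the dotted lines at -1 and 1.

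Marker levels did vary between libraries, but not along the subregion label. With each gene expressed relative to its mean over the 10 libraries on the log2 scale, the mean level of the CA3 markers ran from -0.57 in the CA3-labelled library of untrained animal 1 to 0.36 in that of trained animal 3. In the same libraries the granule cell markers were at 0.27 and -0.34, the highest and the lowest of the 10. The 5 DG-labelled libraries lay between these for both lists, at -0.22 to 0.19 for CA3 markers and -0.09 to 0.16 for granule cell markers. For CA3 markers, the CA3-labelled library of untrained animal 2 was at -0.06, above the untrained DG-labelled libraries at -0.22 and -0.11. Among the 4 animals with both subregions, the median CA3 marker difference (CA3 minus DG) was -0.10, 0.11 and 0.38 in trained animals 1, 2 and 3 and -0.28 in untrained animal 1. The median granule cell marker difference was 0.19, -0.10, -0.26 and 0.10 in the same order. The trained animals 2 and 3 thus had more CA3 marker and less granule cell marker RNA in the CA3-labelled library, and the other 2 animals had the opposite. In bulk tissue, fewer cells of a type and less RNA per cell cannot be told apart.

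**Figure D3:**
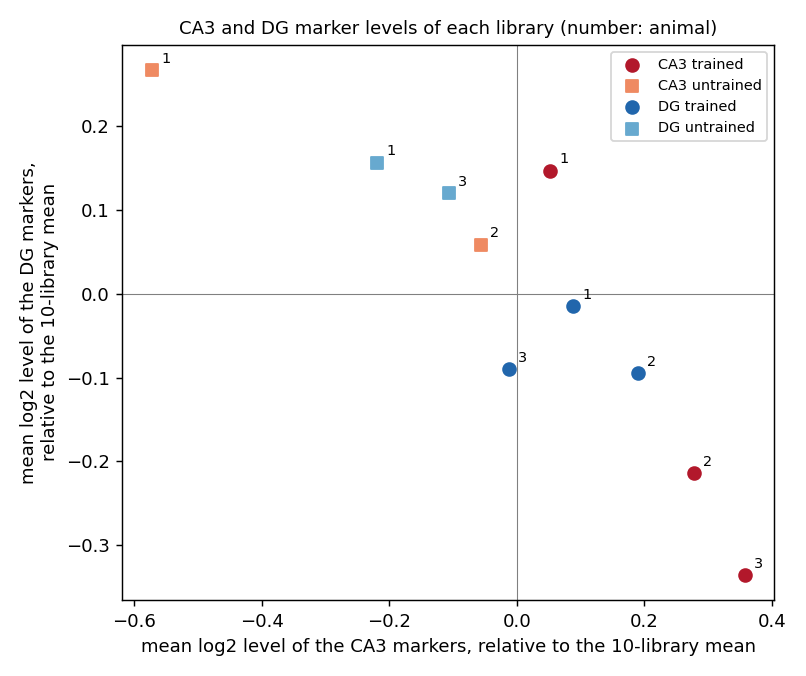
Mean log2 level of the CA3 markers (x axis) and of the DG granule cell markers (y axis) in each library, relative to the mean of the 10 libraries; numbers give the animal. The extremes are both CA3-labelled, untrained animal 1 at -0.57 and 0.27 and trained animal 3 at 0.36 and -0.34, with the DG-labelled libraries between them.

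Of 14303 genes tested, 0 had an adjusted p under 0.05 in limma, and the smallest adjusted p was 0.938. At an unadjusted p under 0.05 there were 727 genes (5.08%), 412 higher in CA3 and 315 higher in DG. All 5 CA3-labelled libraries lay above all 5 DG-labelled ones for 54 genes (0.378%), and the reverse held for 36 (0.252%). The median absolute log2 difference was 0.08, and the 95% interval lay within -1 and 1 for 92.2% of genes and within -0.5 and 0.5 for 73.7%. Among 10861 genes with a mean of at least 50 in the higher subregion, 99.2% had intervals within -1 and 1. A block for the animal gave 0 genes as well, as a random term or as a fixed term (paired fits, smallest adjusted p 0.972 and 0.3). Without the CA3-labelled library of trained animal 1, a single gene passed, Col6a1, a chain of collagen VI, at a log2 difference of 1.22 (adjusted p = 0.00414, and the smallest adjusted p ran from 0.00414 to 0.998 over the alternatives). Col6a1, which is named after its values were seen, was at 51.2, 199 and 132 (trained) and 49.2 and 57.5 (untrained) in CA3-labelled libraries, and at 56.8, 67 and 63.5 (trained) and 24.8 and 24.1 (untrained) in DG-labelled ones. The trained animals 2 and 3 carried the high values, and within untrained libraries both CA3 values exceeded both DG values.

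Whole-library similarity also did not follow the label. Spearman correlations across genes had a median of 0.988 within CA3-labelled libraries, 0.987 within DG-labelled libraries, 0.990 between the subregions of the same animal and 0.988 between subregions of different animals. The nearest library by Euclidean distance over 10751 genes shared the subregion label for 6 of 10 libraries, the training group for 9 and the animal for 2. The first principal component (30.3% of variance) separated trained from untrained libraries, groups that also differed in Xist but for 1 library, and none of the first 4 components separated CA3 from DG.

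Since no gene passed the adjusted threshold, the genes with the smallest p are given as values, named after their values were seen. Kcnd3 (chromosome 3, 105452330 to 105674002, plus strand, GRCm38), the Kv4.3 subunit of A-type potassium channels, had the smallest. It was at 1340, 1358 and 1297 (trained) and 1282 and 1193 (untrained) in CA3-labelled libraries and at 1090, 1147 and 1054 (trained) and 1018 and 1105 (untrained) in DG-labelled ones. Every CA3-labelled library lay above every DG-labelled one, with a log2 difference of 0.26 ± 0.05 (SE) and an adjusted p of 0.938 (0.225 to 0.998 over the alternatives). Next on the CA3 side were Dcaf17, a substrate receptor of an ubiquitin ligase (0.40 ± 0.09), Cgnl1, a junction protein (0.77 ± 0.17), and Slc5a3, the sodium/myo-inositol transporter (0.31 ± 0.07), each without overlap between the labels. On the DG side were Mrpl11, a mitochondrial ribosomal protein (-0.34 ± 0.08, no overlap), Penk, Dbp, a circadian transcription factor (-0.39 ± 0.10), and Dusp6, the ERK phosphatase (-0.28 ± 0.07, no overlap). Dusp6 was at 318, 346 and 315 (trained) and 279 and 343 (untrained) in CA3-labelled libraries and at 390, 369 and 412 (trained) and 367 and 404 (untrained) in DG-labelled ones.

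Among markers of other cells, those of CA1 pyramidal neurons were lower in CA3-labelled libraries in direction for 6 of 6 genes, with a median log2 difference of -0.46. None passed the adjusted threshold, and 2 had an unadjusted p under 0.05, beside 2.20% of all genes tested in this direction. Mpped1 was at 340, 497 and 426 (trained) and 357 and 226 (untrained) in CA3-labelled libraries and at 556, 490 and 735 (trained) and 583 and 518 (untrained) in DG-labelled ones. A single CA3-labelled library, that of trained animal 2, reached the range of the DG-labelled libraries. The Mpped1 difference was -0.67 (interval -1.08 to -0.27, adjusted p = 0.938). The summed value of the 6 genes was 1107 to 1852 in CA3-labelled and 1598 to 2384 in DG-labelled libraries. CA2 markers had a median of 0.11 over 7 genes (0.03 without untrained DG replicate 3, 0.07 without trained DG replicate 1 and 0.18 without trained CA3 replicate 1), with Amigo2, an adhesion protein, at 0.48 (-0.07 to 1.03) and Rgs14, a regulator of G protein signalling, at 0.11. Mossy cell markers of the hilus had a median of -0.13 over 5 genes (0.01 without trained CA3 replicate 2, and -0.08 to -0.03 without untrained CA3 replicate 2, trained CA3 replicate 1, trained DG replicate 3 or untrained DG replicate 3), and interneuron markers one of -0.04 over 12 (-0.01 to -0.09 when leaving out each library). Only 1 mossy cell marker, Calcrl, was positive, at 0.26, and it alone had an unadjusted p under 0.05. The background is 2.88% of all genes tested in this direction. Within trained libraries 1 of 5 mossy cell markers was positive (median -0.26), and within untrained libraries 4 of 5 (median 0.14).

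No glial or vascular gene passed the adjusted threshold. Microglial markers were lower in CA3-labelled libraries in direction for 9 of 9 genes (median -0.14), with 3 at an unadjusted p under 0.05 (2.20% of all genes tested in this direction), among them Tmem119 (-0.32 ± 0.10 SE) and Csf1r, the CSF1 receptor (-0.19 ± 0.06). Astrocyte markers were negative for 10 of 10 (median -0.06, and -0.10 without untrained CA3 replicate 1), where 7125 of 14303 genes were positive, and Gfap, the astrocytic intermediate filament, was at -0.19 ± 0.07 (SE). Oligodendrocyte markers were positive for 10 of 12 (median 0.14), with 0 at an unadjusted p under 0.05. This median was -0.00 without trained CA3 replicate 3 and 0.31 without untrained CA3 replicate 1. Their summed value ran from 13901 to 28961 in CA3-labelled and from 15502 to 22261 in DG-labelled libraries. Endothelial and mural markers had a median of 0.25 over 10 genes (0.15 without trained CA3 replicate 1). The medians of both lists had opposite signs in the training groups, with oligodendrocyte medians of 0.32 within trained and -0.15 within untrained libraries, and endothelial and mural medians of 0.40 and -0.11. At an unadjusted p under 0.05 there were 4 of 10 endothelial and mural genes within trained and 0 of 10 within untrained libraries, beside 6.19% and 10.8% of all genes tested. Oligodendrocyte precursor (median -0.05), progenitor and immature neuron (-0.07), Cajal-Retzius (-0.06), leptomeningeal (-0.09) and thalamic (0.05) lists held at most 1 gene each at an unadjusted p under 0.05 (background 5.08%). A single left-out library moved each of these 5 medians by over 1.5 times, and changed the sign of the leptomeningeal one (0.07 without trained CA3 replicate 1) and of the thalamic one (-0.05 without untrained DG replicate 1).

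The functional gene lists gave the same result, and in each of them 0 genes passed the adjusted threshold. Of 54 transcription factors 1 was higher in CA3 and 2 were higher in DG at an unadjusted p under 0.05, where the background is 2.88% and 2.20% of all genes tested. Pou3f2, a POU-domain factor, was at 106 to 124 in CA3-labelled and 124 to 184 in DG-labelled libraries, without overlap, at -0.34 ± 0.10 (SE). Neurod1 (-0.08) and Bcl11b (-0.03), transcription factors of granule cell development, had intervals of -0.26 to 0.11 and -0.19 to 0.13. Among receptors, the 22 AMPA and NMDA receptor genes, the 7 kainate receptor genes and the 10 metabotropic glutamate receptor genes each had 0 members at an unadjusted p under 0.05. Within trained, within untrained and for the interaction, 2, 6 and 5 AMPA and NMDA and 1, 1 and 3 kainate genes had one. The background is 6.19%, 10.8% and 11.0% of all genes tested, and the metabotropic list had 0 in each. The kainate median was 0.16 within trained and -0.09 within untrained libraries. Grik2 and Grik5, partners of Grik4 in mossy fibre kainate receptors, differed by -0.04 (-0.16 to 0.09) and 0.00 (-0.14 to 0.14). Of 12 GABA-A subunits, Gabra2 (α2) was the exception at 0.43 ± 0.12 (SE, adjusted p = 0.938). Gabra2 was at 889, 933 and 772 (trained) and 1131 and 1584 (untrained) in CA3-labelled libraries and at 721, 793 and 725 (trained) and 868 and 728 (untrained) in DG-labelled ones, so most of its difference lay in the untrained libraries. Gabrd (δ), the extrasynaptic subunit prominent in granule cells, differed by -0.02 (-0.28 to 0.25).

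Of 55 potassium channel genes, 5 were higher in CA3 and 7 higher in DG at an unadjusted p under 0.05, beside 2.88% and 2.20% of all genes tested. Besides Kcnd3, its auxiliary subunit gene Kcnip3 had all CA3-labelled values (566 to 605) above the DG-labelled ones (492 to 565), at 0.12 ± 0.06 (SE). Kcnip4, another auxiliary subunit, pointed to DG at -0.20 ± 0.07, and so did Kcnq3, a subunit of the M current, at -0.14 ± 0.05. The 27 sodium, calcium and HCN channel genes had 0 at an unadjusted p under 0.05 and a median of 0.03. Of 44 receptors for peptides and modulators, 2 were higher in CA3 (Oprd1 and Htr5a) and 3 higher in DG (Chrm4, Htr1a and Htr1b) at an unadjusted p under 0.05, beside 2.88% and 2.20% of all genes tested, and the median was -0.02. The difference farthest from 0 was that of Htr1b, a serotonin receptor gene at low values, with 2.12 to 14.6 in CA3-labelled and 11.1 to 18.9 in DG-labelled libraries (-0.98 ± 0.35 SE). Chrm4, a muscarinic acetylcholine receptor, was at 58.1 to 91.8 in CA3-labelled and 92.5 to 125 in DG-labelled libraries (-0.43 ± 0.13 SE), and Oprd1, the δ opioid receptor that binds enkephalin, was at 0.31 ± 0.11. Of 23 neuropeptide and granin genes that passed the filter, Penk and Cck (cholecystokinin, -0.20 ± 0.07) were lower in CA3-labelled libraries at an unadjusted p under 0.05 (background 2.20%), and Bdnf (-0.06) and Npy (-0.16) had intervals of -0.19 to 0.08 and -0.41 to 0.09.

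The genes that build the mossy fibre synapse had a median of 0.00 over 31 genes tested, and 30 of the 31 intervals lay within -0.5 and 0.5. Slc30a3, the vesicular zinc transporter of mossy fibre boutons, differed by -0.03 (-0.24 to 0.18) and C1ql3, a presynaptic organizer, by -0.07 (-0.31 to 0.17). Stxbp5l (tomosyn-2), a brake on vesicle release, was the only member at an unadjusted p under 0.05, at 0.14 ± 0.05 (SE), where 5.08% of all genes tested had one. The medians of the presynaptic release, cadherin and axon guidance, zinc handling, growth factor, extracellular matrix, second messenger and calcium-binding lists lay between -0.07 and 0.02. The presynaptic release genes had 29 of 38 positive within trained libraries (median 0.06) and 6 of 38 within untrained ones (median -0.15). At an unadjusted p under 0.05 there were 11 of 38 within untrained libraries and 11 of 38 for the interaction, where 10.8% and 11.0% of all genes tested had one. Of 56 second messenger genes, 1 was higher in CA3 and 4 higher in DG at an unadjusted p under 0.05. The background is 2.88% and 2.20% of all genes tested. In this list, Itpka, an inositol trisphosphate kinase of dendritic spines, and Prkcb, a protein kinase C, were at -0.21 ± 0.06 and -0.18 ± 0.07 (SE). The difference farthest from 0 in the list was positive, at 0.38.

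Immediate early genes, which report recent neuronal activity, had a median of -0.05 over 31 genes, with 1 higher in CA3 and 4 higher in DG at an unadjusted p under 0.05, beside 2.88% and 2.20% of all genes tested. Without trained CA3 replicate 3 the median was -0.00, and without trained DG replicate 2 it was -0.03. Arc, an activity-regulated postsynaptic gene whose promoter also drives the transgene, was at 1452 to 1665 in CA3-labelled and 1421 to 1718 in DG-labelled libraries, a difference of 0.01 (-0.11 to 0.14). Fos differed by -0.14 (-0.38 to 0.10). Egr1, a zinc finger transcription factor, was at -0.24 ± 0.08 (SE), Nr4a1, a nuclear receptor, at -0.24 ± 0.08 and Fosl2, an AP-1 subunit, at 0.25 ± 0.08, each with an adjusted p of 0.938.

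Among cytosolic ribosomal protein genes none passed the adjusted threshold either, and most differences were negative. Of 78 genes tested, 67 were negative and 11 positive, beside 7125 positive of 14303 over all genes. Of the 67, 16 had an unadjusted p under 0.05, and none did in the other direction, where the background is 2.20% of all genes tested in the DG and 2.88% in the CA3 direction. The median difference was small, at -0.09 beside 0.00 over all genes, and Rpl14 lay without overlap at 964 to 1024 in CA3-labelled and 1029 to 1219 in DG-labelled libraries (-0.19 ± 0.06 SE). The summed value of the list was 69629 to 74954 in CA3-labelled and 73813 to 82587 in DG-labelled libraries. Its median was -0.11 within trained and -0.03 within untrained libraries. Of 78 oxidative phosphorylation genes, 58 were negative, 7 of them at an unadjusted p under 0.05 (median -0.05), beside 2.20% of all genes tested in this direction.

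**Figure D4:**
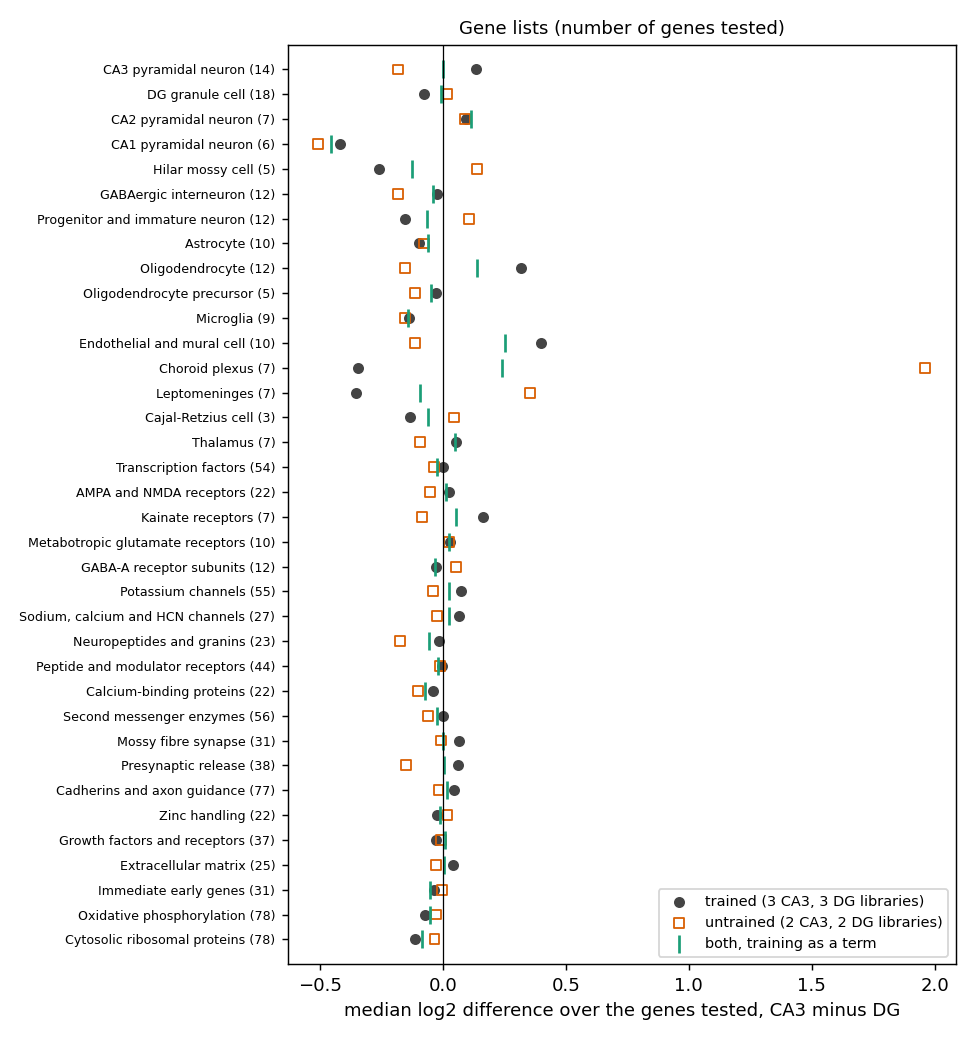
Median log2 difference between CA3-labelled and DG-labelled libraries over the tested genes of each list (rows, number of genes in brackets), within trained (filled circles), within untrained (open squares) and over both (bars). Most medians lie near 0, and the choroid plexus list reaches 1.96 within untrained libraries.

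Within trained animals, 3 CA3-labelled were compared with 3 DG-labelled libraries in a fit of 4 groups that shared the spread. Again 0 genes passed (limma, smallest adjusted p 0.303, 0% called), and 886 (6.19%) had an unadjusted p under 0.05. This last count was 496 without trained CA3 replicate 2 and 585 without trained DG replicate 3. Both libraries of a trained animal share a number in the labels, so paired fits bear on this result, one of them on the trained libraries alone with the animal as a fixed replicate block. With the animal as a random term, at the estimated correlation of 0.0683, 0 genes passed (smallest adjusted p 0.174), with 1034 at an unadjusted p under 0.05. The fixed block called 18 genes, 16 higher in CA3 and 2 higher in DG (smallest adjusted p 0.00665, and 1.88e-06 to 0.958 over the alternatives). The smallest p was that of Meg3, a long noncoding RNA of an imprinted locus (0.47 ± 0.06 SE, adjusted p = 0.00665), followed by Snhg11, a small nucleolar RNA host gene (0.44 ± 0.06, adjusted p = 0.0074). Others higher in CA3 were Neat1, the RNA scaffold of paraspeckles (0.55 ± 0.08, adjusted p = 0.0116), Malat1, another long noncoding RNA (0.35 ± 0.07, adjusted p = 0.0462), Fn1, fibronectin (0.76 ± 0.12), Rgs5, a pericyte gene of the endothelial and mural list (0.61 ± 0.09), and Podxl, podocalyxin (0.71 ± 0.13). Shank1, a scaffold of excitatory synapses, was at 0.42 ± 0.07. Rps14, a ribosomal protein, was lower (-0.37 ± 0.07, adjusted p = 0.0359). These genes are named after their values were seen, and no list of theirs was tested. The fixed block rests on 3 animals and leaves few residual degrees of freedom. Deviations from the group means correlated between the libraries of a trained animal with r of -0.15, -0.08 and 0.17, without a common sign.

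Snhg11 was at 6868, 7166 and 6827 in trained CA3-labelled and 5060, 5652 and 4752 in trained DG-labelled libraries. In untrained libraries it was at 4855 and 4480 (CA3) and 5526 and 4628 (DG), so the separation seen in trained animals was absent there. Meg3 was at 18866, 18545 and 17010 against 12614, 14925 and 11803 in trained libraries, and at 12136 and 12199 against 14468 and 11534 in untrained ones. Neat1 was at 1166, 948 and 975 against 692, 780 and 628 in trained libraries, and at 626 and 798 against 800 and 661 in untrained ones. The 3 trained pairs were thus each higher in CA3, while the untrained values overlapped. Within trained libraries the summed ribosomal protein values were 74954, 69629 and 72656 in CA3 and 79568, 74632 and 82587 in DG. Endothelial and mural markers had a median of 0.40, with Flt1, a VEGF receptor, at 443, 351 and 211 against 191, 176 and 172, and more genes were at 0 in trained CA3 replicates 1 and 2. The part of the vascular cells and of the genes at 0 in the 18 calls was not tested. The unpaired count rose to 48 (22 higher in CA3, 26 lower) without trained CA3 replicate 3 and to 2 without trained DG replicate 3 (Zfp966 at 5.82 and Zfp967 at -1.34, zinc finger genes). With weights for the libraries it rose to 1024 (531 higher, 493 lower), and with all 16 libraries in a single fit to 1 (Snhg11). With a term for the libraries with many genes at 0, it stayed at 0, with 444 genes at an unadjusted p under 0.05.

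Within untrained animals, 2 CA3-labelled and 2 DG-labelled libraries gave 0 genes (limma, smallest adjusted p 0.106, and 1.59e-09 to 0.257 over the alternatives, 0% called) and 1548 (10.8%) at an unadjusted p under 0.05. Only untrained animal 1 gave both, so no block could be set within this group. Genes of the choroid plexus, the epithelium that secretes cerebrospinal fluid, were high in both untrained CA3-labelled libraries. Ttr, the transthyretin gene that this epithelium expresses at very high level, was at 560.5 and 834 in them and at 122.5 and 72.1 in the untrained DG-labelled libraries. Trained libraries had Ttr at 66.6, 72.4 and 66.2 (CA3) and at 68, 41.2 and 177 (DG). Its untrained difference was 2.84 ± 0.64 (SE). The summed value of the 7 choroid plexus genes was 875 and 1203 in the untrained CA3-labelled libraries and 271 to 459 in the other 8, and all 7 were positive within untrained libraries. The 6 CA1-labelled libraries had sums of 345 to 2495, with 4 of them above 1000, so high values were not confined to CA3-labelled tissue. Leptomeningeal genes, of the membranes around the brain, went the same way: 7 of 7 were positive within untrained libraries (median 0.35) and 0 of 7 within trained ones (median -0.36). Their summed value was 2226 and 2492 in untrained CA3-labelled against 1458 and 1811 in untrained DG-labelled libraries. What part the choroid plexus and leptomeningeal RNA had in the untrained comparison was not tested. Gabra2 differed by 0.75 ± 0.14 (SE) within untrained libraries and Slc5a3 by 0.54 ± 0.09. At the level of single libraries, the count rose to 6 without the CA3-labelled library of animal 1, whose Xist value differs from that of the other libraries of its number, and to 2 without that of animal 2 (Mir6236 at -2.65 and 1300002E11Rik at 1.68). It was 24 without DG replicate 1, 75 without DG replicate 3, 1 without trained DG replicate 1 (Trpc2), 2 without trained DG replicate 3 (Ttr and Gm37013), 11 with all 16 libraries in a single fit and 1 in the untrained libraries alone (Gm14430).

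The CA3 minus DG difference was then compared between training groups, as the interaction of subregion and training. It passed for 0 genes (limma, smallest adjusted p 0.102, and 2.12e-08 to 0.512 over the alternatives, 0% called), and 1573 (11.0%) had an unadjusted p under 0.05. Xist was high in all 6 trained and in 1 of the 4 untrained libraries compared here, so training and the sex-linked transcripts cannot be told apart in this comparison. The 4 genes with the smallest p in each direction are given. Stac2 (chromosome 11, 98036623 to 98053462, minus strand, GRCm38), an adaptor of voltage-gated calcium channels, was at 411, 468 and 457 in trained and 263 and 268 in untrained CA3-labelled libraries. In DG-labelled libraries it was at 320, 368 and 329 (trained) and 353 and 378 (untrained). All trained CA3 values lay above, and both untrained CA3 values below, those of DG, with an interaction of 0.85 ± 0.14 (SE, adjusted p = 0.102, 0.0164 to 0.648 over the alternatives). Atn1, the transcriptional corepressor atrophin-1 (0.58 ± 0.10), Brsk1, a kinase of neuronal polarity (0.57 ± 0.10), and Phactr3, a phosphatase and actin regulator (0.59 ± 0.11), had the same sign. On the negative side, Gpr151, an orphan receptor known for its expression in the habenula, was at 2.20, 4.71 and 4.71 (trained) and 67.1 and 35.9 (untrained) in CA3-labelled libraries. In DG-labelled libraries it was at 6.32, 13.8 and 5.45 (trained) and 5.23 and 3.73 (untrained). The high values were thus those of both untrained CA3-labelled libraries, the same that were high in Ttr (interaction -3.78 ± 0.70 SE, adjusted p = 0.102). Atrip-trex1 (-1.54 ± 0.29), a readthrough gene of DNA damage response loci whose reads overlap its parts, Sptssa, a subunit of serine palmitoyltransferase (-1.15 ± 0.22), and Fabp7, a fatty acid binding protein of radial glia and astrocytes (-1.30 ± 0.25), completed the list.

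**Figure D5:**
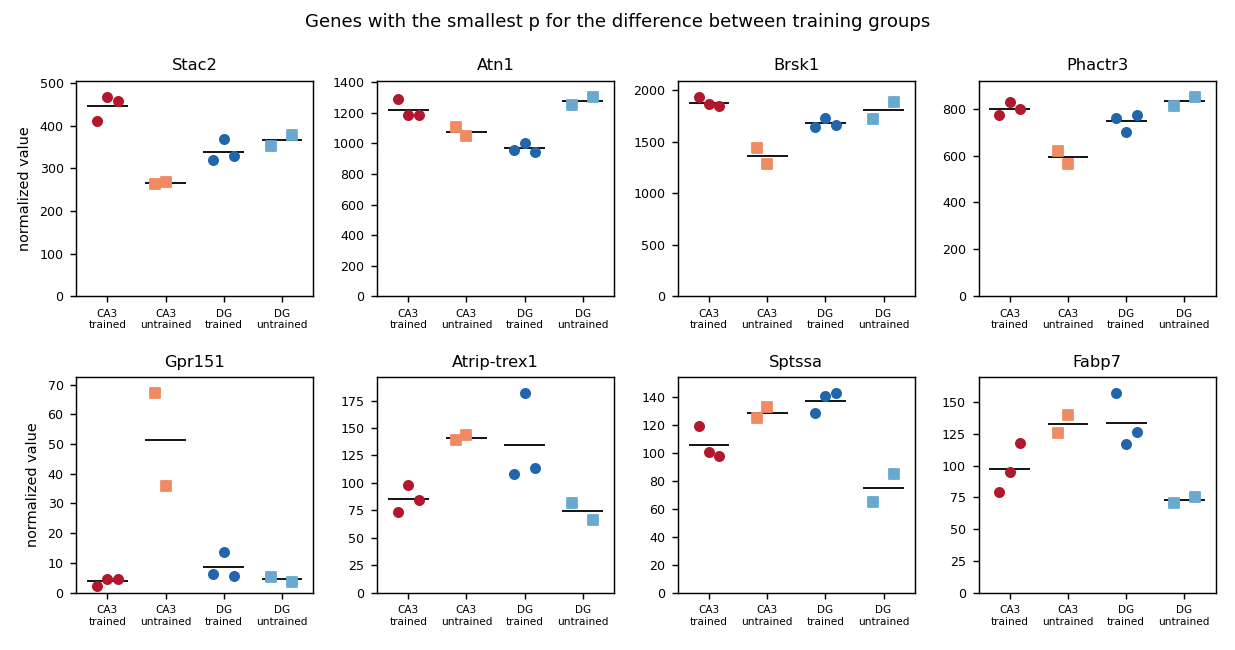
Normalized values (y axis, from 0) of the 8 genes with the smallest p for the difference between training groups, in each library by label and training (x axis); lines are group means. In the top row both untrained CA3 libraries lie below both untrained DG libraries for each gene, and the trained CA3 libraries above the trained DG libraries except for Phactr3, where they overlap (Stac2 is at 411 to 468 in trained and at 263 and 268 in untrained CA3 libraries), and in the bottom row Gpr151 is at 35.9 and 67.1 in untrained CA3 libraries and under 14 elsewhere.

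The libraries with many genes at 0 were CA3-labelled in trained and DG-labelled in untrained animals, which is nearly the same contrast as the interaction. With a term for these libraries, the genes at an unadjusted p under 0.05 fell from 1573 to 885, and the smallest adjusted p was 0.512. How far the number of genes at 0 and the interaction go together beyond this was not tested. The count of genes that passed rose to 15 with library weights and to 19 with all 16 libraries in a single fit. It was 71 without trained CA3 replicate 3, 15 without untrained DG replicate 1, 7 without untrained DG replicate 3, 2 without untrained CA3 replicate 2 (Mir6236 and Hs3st4), 1 without untrained CA3 replicate 1 (Serpina3n) and 1 without trained CA3 replicate 2 (Gm14430).

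The 6 CA1 libraries set a scale for these differences. In a fit of all 16 libraries over 14670 genes, CA3 minus CA1 gave 31 genes with an adjusted p under 0.05 (0.211%, 10 higher in CA3, 21 lower) and CA1 minus DG gave 286 (1.95%, 164 higher in CA1, 122 lower), while CA3 minus DG gave 0, with 715 at an unadjusted p under 0.05. These comparisons share libraries. The count for CA3 against CA1 moved with single libraries: it was 0 without untrained CA1 replicate 1 or trained CA1 replicate 3, and 3 without untrained CA1 replicate 2 or trained DG replicate 2. It was 5 to 13 without trained CA3 replicate 2 or 3, untrained CA3 replicate 2 or trained DG replicate 1, 53 without untrained CA1 replicate 3 and 65 without trained CA3 replicate 1. The count for CA1 against DG was 94 to 154 without untrained DG replicate 3, trained DG replicate 2 or untrained CA1 replicate 1 or 2. Wfs1, the wolframin gene that marks CA1 pyramidal neurons, had a mean of 318 in CA3-labelled, 444 in DG-labelled and 865 in CA1-labelled libraries, with 746, 1009 and 1663 in the untrained and 472, 619 and 681 in the trained CA1 libraries. The summed CA1 markers were at 3590 to 5709 in untrained CA1-labelled libraries and at 1898 to 2352 in trained ones, which lies inside the range of the DG-labelled libraries (1598 to 2384). Prox1 had a mean of 3536 ± 271 (SD, n = 6) in CA1-labelled libraries, next to 3648 in CA3 and 3665 in DG.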

How the data were processed

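Dorsal CA3 and DG of trained and untrained mice were profiled by bulk RNA-seq, with 1 library per animal and subregion. Per the labels and the study's methods, reads were demultiplexed with bcl2fastq, trimmed with Trim Galore, aligned to mm10 with STAR and quantified with Salmon. The labels name GRCm38 (mm10), the build used here for positions, while the methods write mm10 beside the name of a later build. The authors deposited 1 signal value for each gene in each library. These are estimated counts after a library-wise scaling whose factor is not given in the sources used here. The values are not whole and depth is unknown, so no interval from counting was computed. The labels name polyA RNA and also an rRNA depletion kit.

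The values were analysed as log2(value + 2), so fold changes of low genes are understated. Of 24972 rows, 4 rows of 2 ambiguous symbols were removed, and the 14303 genes with a value of at least 10 in at least 2 of the 10 libraries were tested. CA3 minus DG was fitted with training as an additive term in limma 3.58.1 (R 4.3.3, trend and robust). A fit of 4 groups gave the differences within trained and within untrained libraries and their interaction. P-values were two-sided and adjusted by Benjamini-Hochberg over all genes tested, with a threshold of 0.05. The fits were run on simulated data with independent noise for each gene and library. This checked the fitting steps and does not bear on the counts of genes reported here. Intervals are 95% intervals of the fit. Positions came from GENCODE vM21 on GRCm38.

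The labels give libraries of the same animal the same number, so the replicate block was fitted as well, although Xist differed between the libraries numbered untrained 1. Deviations from the group means correlated between the subregions of an animal with r of -0.15, -0.08 and 0.17 (trained animals 1, 2 and 3) and 0.04 (untrained animal 1) across 10751 genes.

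Genes were to be named as the 12 with the largest difference in each direction, and up to 4 per list and direction, among those past the threshold. None passed, so list members are named to account for their list, with the 4 interaction genes of smallest p in each direction, Xist and Ddx3y. Any other gene was chosen after its values were seen. The values of 1 list gene are not reported here. The comparison, the 36 gene lists and the named genes were chosen with earlier results of these data known. Alternatives were 2 rescalings, 2 pseudocounts, 3 filters, no robust estimation, library weights, the block, a fit of all 16 libraries, a covariate marking the libraries where over 6755.5 genes were at 0 and leaving out each library.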

Additional observations from a re-analysis of the deposited data

Results flagged for a closer look

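Among 102 genes, the 5 CA3-labelled and the 5 DG-labelled values were each searched for a highest or lowest library far from the other 4, by Dixon's 95% criterion. Of 204 groups checked, 13 were marked, 3 in CA3 and 10 in DG. The nominal rate of about 1 in 20 groups is no reference for this count. Some of the 102 genes were chosen after their values were seen, and each group holds trained and untrained libraries. In the CA3-labelled library of untrained animal 1, whose Xist value differs from that of the other libraries of its number, Calb2 (calretinin, a marker of mossy cells and interneurons) was at 82.6 with the next value at 33.1, and Ebf1 was at 44.6 with the next at 25.9. The ribosomal protein gene Rpsa was lowest at 1820 in the CA3-labelled library of untrained animal 2 (next 1946). In the DG-labelled library of untrained animal 1, the CA2 marker Amigo2 was at 199 (next 125), the mossy cell marker Calcrl at 85.6 (next 69.1), the pericyte gene Rgs5 at 701 (next 487) and Man1a lowest at 149 (next 241). In the DG-labelled library of trained animal 2, the CA3 markers Nptx1 and Spock1 were at 8650 (next 7523) and 2360 (next 1867), and Gpr151 was at 13.8 (next 6.32). Chrm4 was at 125 in the DG-labelled library of trained animal 3 (next 101). Zfp966 was at 61.1 in that library and at 0 in the other 4 DG-labelled ones, and Hs3st4 was highest at 720 in the DG-labelled library of untrained animal 3.

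For 9 of these genes every CA3-labelled library lay on one side of every DG-labelled library in trained animals and on the other side in untrained animals. The same held for 461 of the genes tested (3.22%). These shares cannot be compared. Of the 9 genes, 6 were among the 8 interaction genes, which were chosen for a small interaction p. Shank1 and Mir6236 were also chosen after their values were seen. The difference of the log2 differences (trained minus untrained) was 0.85 for Stac2, 0.579 for Atn1, 0.574 for Brsk1, 0.921 for Shank1, 1.04 for Flt1, 2.59 for Mir6236, -3.78 for Gpr151, -1.54 for Atrip-trex1 and -1.15 for Sptssa. The interaction test gave adjusted p-values of 0.279 for Shank1, 0.366 for Flt1, 0.359 for Mir6236 and 0.102 for the other 6, none past the threshold.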

How the results depend on the processing

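The count of 0 genes for CA3 against DG held under every alternative but one left-out library, with a leave-one-out range of 0 to 1 gene. It was also 0 with the animal as a replicate block, and so were the counts within trained, within untrained and for the interaction with a random block, whose consensus correlation was 0.0683. Within trained libraries the fixed block gave 18 genes in the trained libraries alone, library weights gave 1024 and all 16 libraries together 1, and the leave-one-out range was 0 to 48. Within untrained libraries the count was 11 with all 16 libraries, 1 in the untrained libraries alone, and 0 to 75 when leaving out each library. The interaction count was 15 with library weights, 19 with all 16 libraries, and 0 to 71 in the leave-one-out fits. For CA3 against CA1, whose alternatives were chosen after seeing the data, the count of 31 became 64 without robust estimation, with a leave-one-out range of 0 to 65, and that for CA1 against DG was 94 to 368. Counts at an unadjusted p under 0.05 ran from 545 to 1157 for CA3 against DG (727 as reported), from 444 to 3445 within trained (886), from 990 to 2588 within untrained (1548) and from 885 to 3290 for the interaction (1573). The cause of these changes was not tested. For 94 genes, 2065 of 2155 alternative values of CA3 minus DG kept their sign, and the 90 that changed belonged to 24 genes with differences of at most 0.47. The 8 interaction genes kept their sign in all 174 values, and 25 of these passed the threshold. List medians changed sign in 67 of 828 values, in 18 lists, and none of these were tested. The medians of the CA1 markers and the ribosomal proteins kept their sign in all 23 alternatives each. With 2 untrained libraries per subregion, a left-out library leaves 1, which is then assumed to vary like the other groups.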
